A study of Mus musculus with 11 samples.

Results

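Keratins are the intermediate filament proteins of epithelial cells. Each filament is built from an acidic type I and a basic type II chain, so the genes are used in pairs, and in skin the pair tells the layer. Basal keratinocytes use Krt5 with Krt14, cells that leave the basal layer switch to Krt1 with Krt10, and wounded or hyperproliferative epidermis adds Krt6, Krt16 and Krt17, while the hair follicle has root sheath and shaft keratins of its own. The members described here are all protein-coding mouse genes whose symbol is Krt and a number, with at most 1 letter after it and without the keratin-associated proteins, which gave 53 of the 52550 genes in the table. Of the 53, 28 encode type I and 25 type II keratins. They lie in both keratin clusters of GRCm38, 27 on chromosome 11 between 99232761 and 100269871 and 26 on chromosome 15 between 101347444 and 102032027, where Krt18 is the type I member.

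The study asked how keratinocytes (KCs) and dendritic epidermal T cells (DETCs) differ when they develop without Langerhans cells (LCs), the dendritic cells of the epidermis. It used female huLangerin-DTA mice (LC-/-), in which the human langerin promoter drives diphtheria toxin subunit A so that LCs are lacking from birth, and wild type (WT) littermates, all 8 weeks old, with no treatment named. From flank epidermis, live cells negative for MHC-II, langerin and c-kit were sorted as KCs (CD45-) or DETCs (CD45+), and their poly-A RNA was sequenced. There were 3 WT and 3 LC-/- KC libraries and 3 WT and 2 LC-/- DETC libraries, written W1 to W3 and L1 to L3 in the order of the numbers in their labels, with no DETC library for L1. In the authors' plot of the libraries each point is an animal of its own, so p-values measure the spread between the animals of a group. Whether KC and DETC libraries of the same number share an animal is not stated. Loss from birth means that an effect of LC absence and an effect on epidermal development cannot be told apart. Values are the authors' read counts per gene after division by a size factor for the depth of the library, called normalized counts, and 1 read was worth 0.825 to 1.11 of them. The reads counted on genes ranged from 13491075 to 19750440 over the 11 libraries, and a gene without reads is compatible with up to 3 reads, or 2.48 to 3.32 normalized counts, by counting error alone. Cd207, which encodes langerin, checked the labels: it had 6, 29 and 18 reads in WT KCs, 0 in each LC-/- KC library, 20, 20 and 48 in WT DETCs and 0 and 4 in LC-/- DETCs. The authors' minimum, more than 1 CPM (reads scaled to a common library total) in at least 2 libraries, was met here by 14419 genes and by 19 keratins. In KCs alone 18 of the 19 met it, all but Krt83, and in DETCs alone 17, all but Krt2 and Krt7. The paper reports a larger number for its filter.

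A small set of keratins made up nearly all keratin RNA of the KCs. Members with a mean of at least 10 normalized counts in either population numbered 20, the 19 that met the minimum and Krt8, and in KCs the 6 with most counts held 89.3% of all keratin counts and the 10 with most held 99.3%. Keratin reads made up 2.97%, 3.12% and 2.77% of the reads in the WT KC libraries and 2.43%, 2.79% and 2.28% in the LC-/- ones. Per kilobase of transcript, which allows genes to be compared, the mean over the 6 KC libraries was 52289 normalized counts for Krt5, 42717 for Krt14, 28814 for Krt10, 28424 for Krt15 and 11066 for Krt77. The order of Krt10 and Krt15 is not settled, since Krt10 ranged from 21579 to 36534 and Krt15 from 25946 to 31099. Krt17 (10428), Krt1 (7634), Krt16 (4934), Krt79 (4551) and Krt80 (1810) came next by mean on that scale. The remaining 10 of the 20 had means of 466 or less. Neighbours among Krt77, Krt17, Krt1, Krt16 and Krt79 had overlapping ranges, so their order is not settled either. The other 33 members had at most 14.0 normalized counts and 17 reads in any library. Of these, 9 had 0 reads in all 11 libraries, 12 had 1 to 3 reads in their highest library, and 12 had more than 3.

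**Figure D1:**
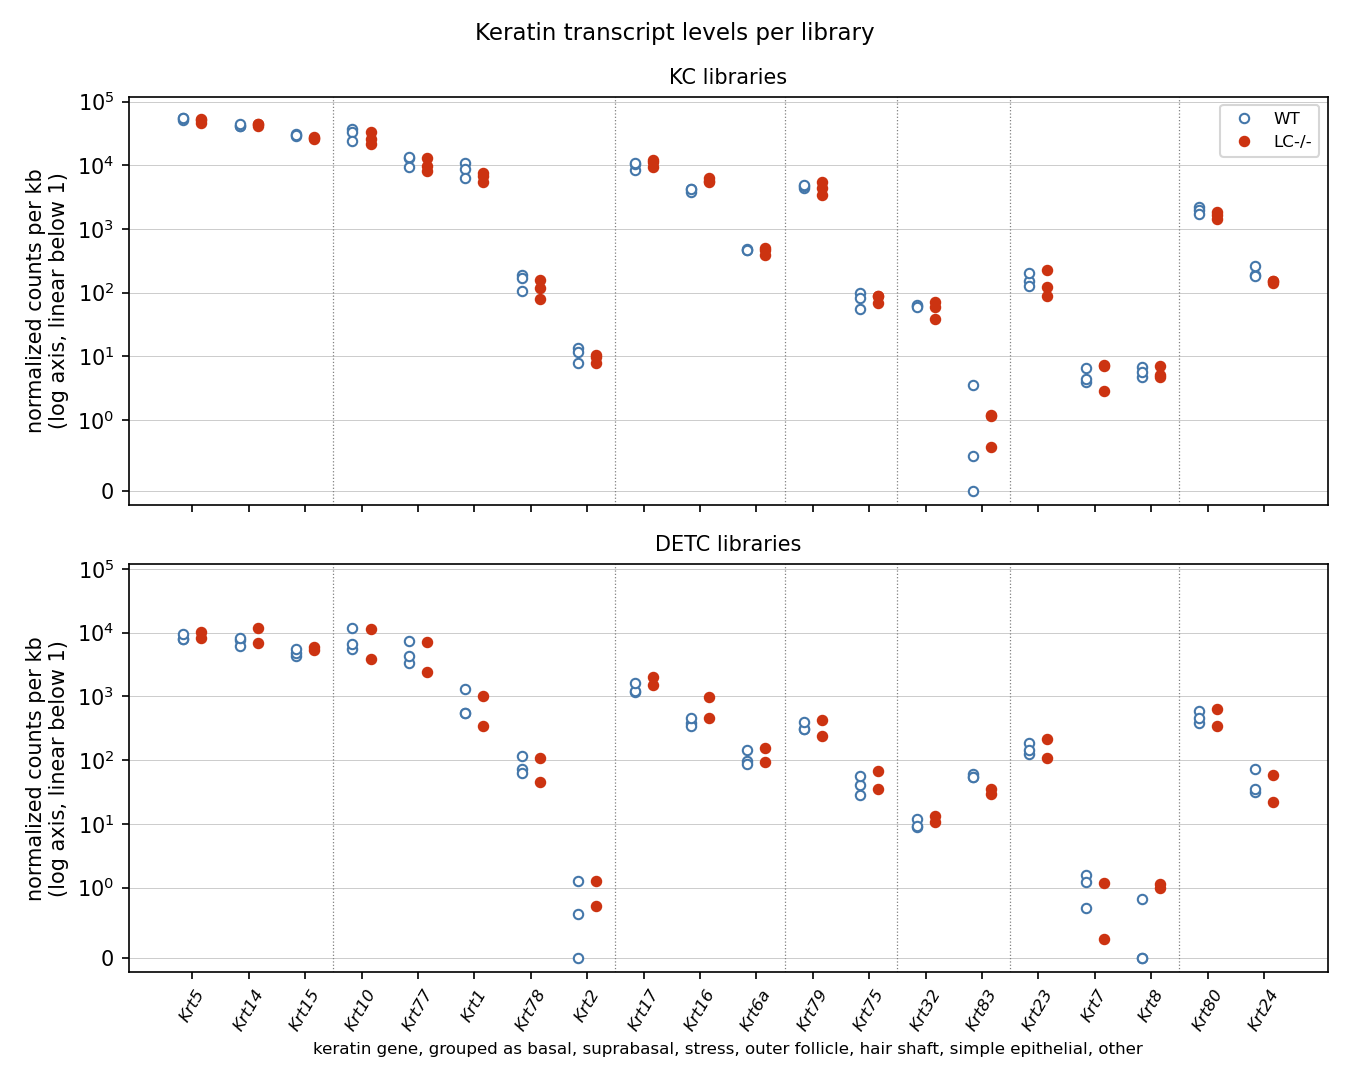
Normalized counts per kilobase of transcript (vertical axis, logarithmic above 1 and linear below) for the 20 keratin genes with a mean of at least 10 normalized counts in KC or DETC libraries, in KC libraries (top) and DETC libraries (bottom), with open circles for WT and filled circles for LC-/- libraries. Krt5 and Krt14 are the highest in every KC library, at 40696 or more per kilobase, and Krt83 is the 1 member with a higher level in every DETC library than in any KC library.

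Whether keratinocytes express other keratins when LCs are lacking was read from the KC libraries. The stress keratin Krt16 was the 1 member that passed the main test below, but not when any 1 library was left out. Most of the abundant keratins had overlapping values. After adding 1 and taking log2, genotypes were compared by limma over all 14419 genes, and a gene is called higher or lower where its p, adjusted by the Benjamini-Hochberg method, was under 0.05. Of the 19 keratins tested, 1 was called higher, where 5.37% of all tested genes were, and 0 were called lower, where 1.85% of all tested genes were. In either direction 7.23% of all tested genes were called. The keratin count is close to these shares, and no excess of keratins is read from it. The direction of that background depends on scaling, since 74.4% of the calls by limma were higher, but 27.2% with the library total (355 higher, 951 lower). At an unadjusted p under 0.05 limma had 1 keratin higher and 1 lower, against 14.7% and 11.7% of all tested genes. On the recovered reads edgeR and DESeq2 each called 1 higher (Krt16) and 1 lower (Krt24), where of all tested genes edgeR called 8.27% and 4.10% and DESeq2 8.43% and 3.72%. Values of the 3 members Krt16, Krt15 and Krt24 did not overlap between genotypes, against 31.5% of all tested genes. The median log2 fold change was -0.14 over the 19 keratins and -0.01 over all tested genes. The 19 include Krt83, which met the minimum only through DETCs. Of all tested genes 46.11% were above 0, and 13 of the 19 keratins were below 0. When 1 library was left out, 10 to 15 were below 0 and the keratin median lay between -0.175 and -0.06. Scaling by the library total instead shifted the median of all genes to -0.145 in KCs and -0.18 in DETCs, and the keratins in KCs to -0.27 with 17 below 0.

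Krt16 (ENSMUSG00000053797.10) is a type I keratin that pairs with Krt6 in the outer root sheath and is induced in injured epidermis. Its normalized counts in KCs were 6746 (W1), 5901 (W2) and 6576 (W3) in WT and 8869 (L1), 9804 (L2) and 8436 (L3) in LC-/- libraries. All 3 LC-/- libraries lay above all 3 WT libraries. The WT mean of 6408 ± 447 (SD, n = 3) stood against an LC-/- mean of 9036 ± 699 (SD, n = 3), a ratio of 1.41, with a log2 fold change of 0.50 (SE 0.08) and an adjusted p of 0.0354 by limma. The call did not hold without W1, W2, W3, L1, L2 or L3, each left out in turn, when the adjusted p by limma lay between 0.0525 and 0.107. It also ended with scaling by the library total (log2 fold change 0.36) or by quantiles (0.31), and when all 11 libraries were fitted together. Of 17 alternatives, 8 kept the call (adjusted p 2.09e-06 to 0.166 by limma, edgeR or DESeq2). More cells with Krt16 and more Krt16 RNA per cell cannot be told apart in sorted bulk samples, and the same holds for each keratin that follows. Krt16 lies at chr11:100246091-100248902 on the minus strand, and 28.9% of the 75-base stretches of its transcript occur in other genes, most of them in the pseudogene Gm11597, which had 5 to 62 reads in KC libraries, and some in Krt14. How the authors' counting treated reads that match more than 1 gene is not given in the sources used here, so Krt16 counts carry that uncertainty.

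The other stress keratins were not called. Krt6a, the type II partner in wounds and in the companion layer of the follicle, had 1104, 1072 and 1081 normalized counts in WT KCs and 1066, 1153 and 894 in LC-/- KCs, and the genotypes overlapped. Krt17, a type I keratin of follicle outer layers and activated epidermis, had 13286, 16255 and 16927 in WT and 17318, 18886 and 14375 in LC-/- libraries, with a log2 fold change of 0.12 (SE 0.14, adjusted p of 0.641 by limma). Without W1 it was 0.01 and without L3 0.23, and with the library total or quantile scaling it was below 0. L1 and L2 were the highest for Krt17 and L3 lay within the WT range. Krt16 counts were 6.11, 5.5 and 6.09 times those of Krt6a in the WT libraries and 8.32, 8.5 and 9.43 times in the LC-/- libraries, without overlap, and this ratio was not tested. Krt6a shares 56.0% of its 75-base stretches with other genes, 36.2% with Krt6b, and Krt6b itself had only 3 to 16 reads in KC libraries.

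None of the 3 basal keratins was called by limma, edgeR or DESeq2, and Krt15 was the 1 whose values parted the genotypes. Krt5 had 114504, 121660 and 122907 normalized counts in WT KCs and 116781, 112861 and 100564 in LC-/- KCs, a log2 fold change of -0.12 (SE 0.17, adjusted p of 0.691 by limma). Krt14, its type I partner, had 70230, 69888 and 74746 in WT and 75379, 75855 and 69101 in LC-/- KCs, a log2 fold change of 0.04 (SE 0.12, adjusted p of 0.891 by limma). For both genes L3 was the lowest of the 6 libraries, and without L3 the log2 fold changes were -0.06 for Krt5 and 0.08 for Krt14. With quantile scaling they were -0.30 and -0.07. Krt15, a basal keratin that is high in the stem cells of the follicle bulge, had 48993, 52868 and 50886 in WT and 44108, 47005 and 46070 in LC-/- KCs. Every LC-/- library lay below every WT library for Krt15, but the log2 fold change of -0.15 (SE 0.09) had an adjusted p of 0.340 by limma and was not called, and with the library total it was -0.29. Per kilobase, the ratio of Krt5 to Krt14 came to 1.26, 1.35 and 1.27 in WT and 1.2, 1.15 and 1.12 in LC-/- KCs, and over all members the ratio of type II to type I keratins came to 0.696, 0.707 and 0.697 in WT and 0.670, 0.646 and 0.628 in LC-/- KCs. Neither ratio overlapped between genotypes, and neither was tested. The type II to type I ratio includes Krt5 and Krt14, so it is not separate from the first. Of all tested genes, 31.5% did not overlap between genotypes in KCs.

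The suprabasal keratins Krt10, Krt1, Krt77 and Krt78 varied more from library to library than the basal ones, and that variation ran across the genotypes. Krt10, the type I keratin of the spinous layer, had 76503, 69151 and 49448 normalized counts in WT KCs and 45186, 68503 and 53233 in LC-/- KCs. Krt1, its type II partner, had 26748, 21292 and 15515 in WT and 13497, 18509 and 16887 in LC-/- KCs. Krt77, another type II keratin of suprabasal cells, had 38565, 39187 and 27111 in WT and 23556, 37864 and 28322 in LC-/- KCs. W1, W2 and L2 were the 3 highest and L3, W3 and L1 the 3 lowest libraries for each of these genes. Krt78, a type II keratin of the later differentiated layers, had 654, 581 and 361 in WT and 277, 550 and 404 in LC-/- KCs. From high to low the order W1, W2, L2, L3, W3, L1 was the same for Krt10, Krt1 and Krt78, and Krt77 differed only in W2 standing before W1. None of the 4 was called, with log2 fold changes of -0.22 (SE 0.24) for Krt10, -0.36 (SE 0.23) for Krt1, -0.23 (SE 0.24) for Krt77 and -0.39 (SE 0.34) for Krt78, and adjusted p-values of 0.396 to 0.609 by limma. These sizes depend on single libraries: Krt10 went from -0.41 without W3 to -0.08 without L1, Krt1 from -0.56 without W3 to -0.17 without W1, Krt77 from -0.42 without L2 to -0.07 without L1 and Krt78 from -0.64 without W3 to -0.13 without L1. An antisense gene, Gm11940, overlaps Krt10 exons and had 123 to 292 reads in KC libraries, and the strand used in counting is not stated. Krt2, the type II keratin of the uppermost living layers in thick skin, had only 20.4 to 35.9 normalized counts in KCs and did not share the order, with W1, W3 and L3 the highest.

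The balance of the layers was also highest in W1, W2 and L2. Summed counts of the 5 suprabasal members over those of the 3 basal members gave 0.610, 0.533 and 0.372 in WT and 0.349, 0.532 and 0.458 in LC-/- KCs. The WT mean was 0.505 ± 0.121 (SD, n = 3), the LC-/- mean 0.447 ± 0.0920 (SD, n = 3), so the groups overlapped and the difference was smaller than the spread within WT. The ratio of Krt1 to Krt10 counts varied less, at 0.350, 0.308 and 0.314 in WT and 0.299, 0.270 and 0.317 in LC-/- KCs.

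Of the suprabasal members that moved together, Krt10, Krt77 and Krt78 have a promoter window in the RefSeq table of GRCm38.p6, which covers 250 bases before to 50 after the start and matched 36 of the 53 members with 37 windows. They are shown 5′ to 3′ on the minus strand, Krt10 at chr11:99389315-99389614, Krt77 at chr15:101869656-101869955 and Krt78 at chr15:101954238-101954537, with that of Krt5 (chr15:101712856-101713155), which did not share the order of libraries. The capitals mark every match, on either strand, to TATAAA or to its like TATATA and GATAAAA (forms of the TATA element, chosen after the windows had been read), to TTNNGCAA (the C/EBP motif), to TGANTCA (AP-1) and to GCCNNNGGC (AP-2).
Krt10: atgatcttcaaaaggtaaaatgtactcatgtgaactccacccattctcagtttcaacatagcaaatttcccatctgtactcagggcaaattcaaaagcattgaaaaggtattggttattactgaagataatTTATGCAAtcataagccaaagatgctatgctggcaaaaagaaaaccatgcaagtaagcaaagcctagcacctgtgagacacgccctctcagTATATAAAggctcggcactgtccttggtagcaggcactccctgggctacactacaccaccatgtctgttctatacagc
Krt77: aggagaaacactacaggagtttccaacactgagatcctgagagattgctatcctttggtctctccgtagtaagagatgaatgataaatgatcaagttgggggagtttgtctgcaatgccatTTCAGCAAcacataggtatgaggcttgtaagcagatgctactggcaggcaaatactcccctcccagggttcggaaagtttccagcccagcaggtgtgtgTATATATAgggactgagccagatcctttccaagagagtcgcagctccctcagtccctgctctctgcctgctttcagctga
Krt78: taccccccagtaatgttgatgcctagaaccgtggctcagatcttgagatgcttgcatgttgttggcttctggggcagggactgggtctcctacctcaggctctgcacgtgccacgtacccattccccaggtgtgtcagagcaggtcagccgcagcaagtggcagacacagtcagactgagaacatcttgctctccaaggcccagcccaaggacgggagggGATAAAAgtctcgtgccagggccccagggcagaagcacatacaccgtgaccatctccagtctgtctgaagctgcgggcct
Krt5: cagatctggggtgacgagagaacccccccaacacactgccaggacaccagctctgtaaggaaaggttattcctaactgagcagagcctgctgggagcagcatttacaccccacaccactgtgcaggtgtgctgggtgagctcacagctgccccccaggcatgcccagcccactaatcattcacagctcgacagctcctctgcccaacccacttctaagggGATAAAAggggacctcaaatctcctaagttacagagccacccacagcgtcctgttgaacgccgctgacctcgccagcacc
Krt10 had TATATA and TATAAA overlapping between -28 and -21, Krt77 had overlapping copies of TATATA between -30 and -23, and Krt78 and Krt5 both had GATAAAA from -30 to -24, all counted from the start. A match to TTNNGCAA stood at -119 to -112 in Krt10 and at -129 to -122 in Krt77, and was found in neither Krt78 nor Krt5. TGANTCA and GCCNNNGGC had no match in the 4 windows. Over all 32851 windows of the table, 13.6% held TATAAA, 5.67% TATATA, 3.45% GATAAAA, 10.8% TTNNGCAA, 7.81% TGANTCA and 16.6% GCCNNNGGC, and of the 37 keratin windows 19, 9, 4, 5, 2 and 7 did. A match describes the letters only, and binding was not measured.

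Among the remaining tested keratins of KCs, Krt24 had the largest downward log2 fold change. Krt24 (ENSMUSG00000020913.3) is a type I keratin of differentiating stratified epithelia and lies at chr11:99279959-99285262 on the minus strand. Its normalized counts were 355, 336 and 485 in WT and 286, 265 and 279.5 in LC-/- KCs. All LC-/- libraries lay below all WT libraries, and W3 stood well above the other WT libraries, without which the log2 fold change was -0.32. With all libraries the log2 fold change was -0.48 (SE 0.15) with an adjusted p of 0.123 by limma, while DESeq2 gave an adjusted p of 0.0117 and the 17 alternatives as a whole gave 0.0117 to 0.428. The call was made in 4 of them, edgeR, DESeq2, no filter and a mean of at least 10. Krt80, a type II keratin that appears as keratinocytes differentiate, had 6852, 6039 and 5265 in WT and 4442, 5647 and 5064 in LC-/- KCs, a log2 fold change of -0.26 (SE 0.13, adjusted p of 0.278 by limma), which was -0.17 without W1 and -0.445 with quantile scaling. L1 was the lowest library for Krt80, as it was for Krt1, Krt10, Krt77 and Krt78.

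Of the remaining keratins of the follicle and of simple epithelia, Krt79 had the highest level in KCs. Krt79, a type II keratin of the upper follicle, had 9143, 9772 and 10426 normalized counts in WT and 9083, 11640 and 7194 in LC-/- KCs, with the lowest and the highest value both in LC-/- libraries. Krt75, the companion layer keratin, had 178 to 327 in WT and 224 to 292 in LC-/- KCs, and Krt32, a cuticle keratin of the hair shaft, had 99.4 to 105 in WT and 65.0 to 121 in LC-/- KCs. Krt23, a type I keratin of glandular and simple epithelia, had 199.7 to 320.0 in WT and 138 to 355 in LC-/- KCs, so genotypes overlapped for all 4 genes. Inner root sheath keratins were close to undetected, with 5.57 to 14.7 normalized counts for all 7 members together, and 0 of the 7 met the minimum. Krt8 and Krt18, the pair of simple epithelia and of Merkel cells, had 9.16 to 13.7 and 6.15 to 13.2 in KCs, and the 11 Merkel cell markers summed to 26.0 to 33.6, with Krt8 the most abundant and Atoh1 at 0 in every KC library. The 11 hair matrix and shaft markers summed to 503, 501 and 485 in WT and 424, 409 and 439 in LC-/- KCs, led by Tchh, and none of the 7 tested was called.

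**Figure D2:**
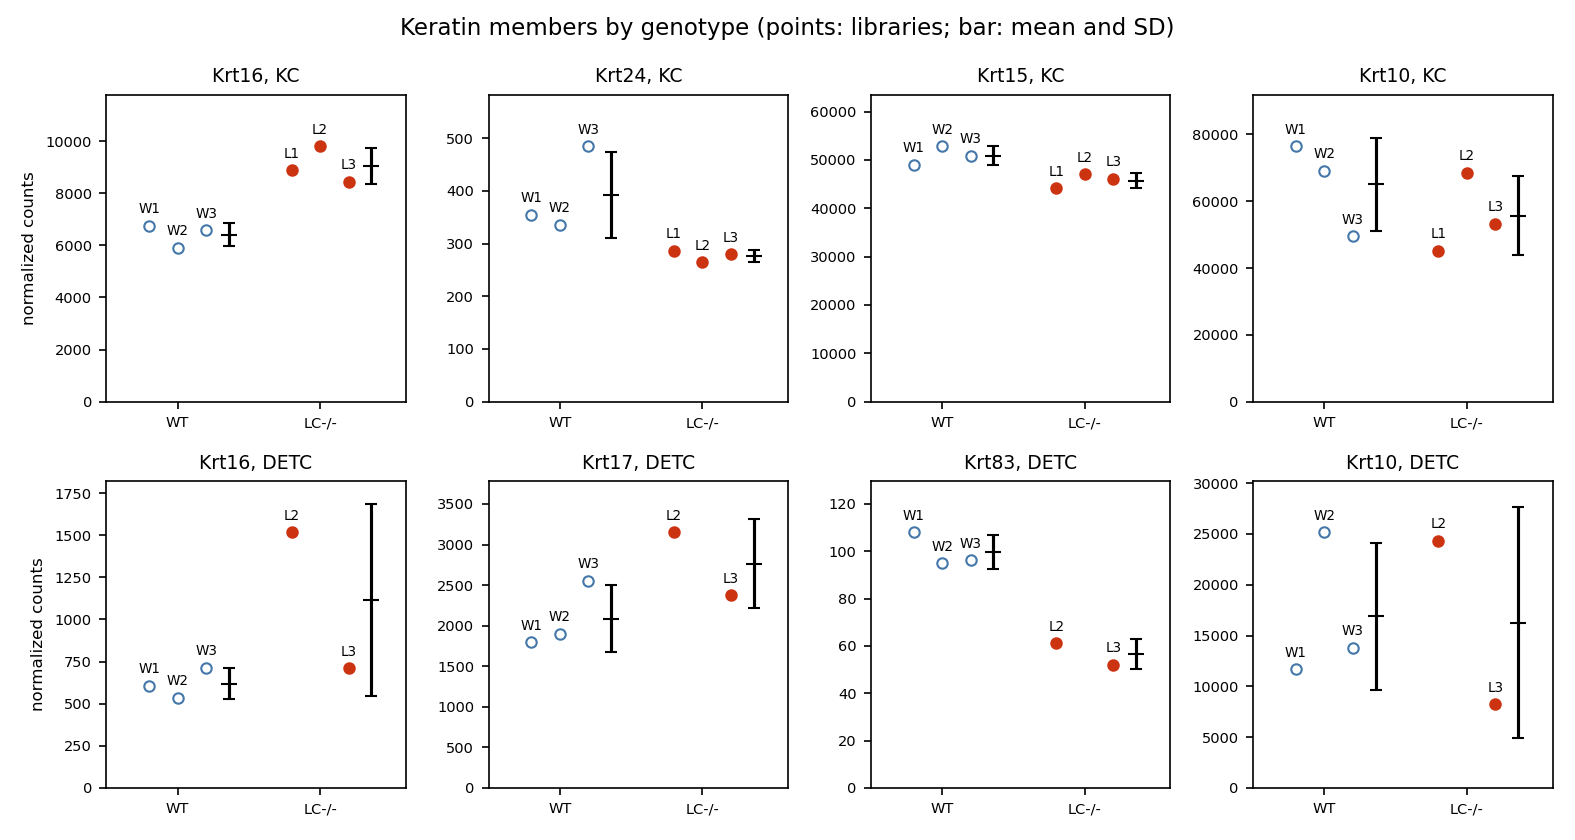
Normalized counts (vertical axes, from 0) of single keratin genes in KC libraries (top) and DETC libraries (bottom), by genotype, where points are libraries with their names and the bar beside each group is its mean with SD (n = 3, but n = 2 for LC-/- DETCs). Krt16, Krt24 and Krt15 do not overlap between genotypes in KCs and Krt83 does not in DETCs, whereas Krt10 overlaps in both populations.

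DETCs are T cells, and their libraries held keratin RNA at a lower level than KCs. Keratin reads made up 0.436%, 0.567% and 0.477% of the reads in WT and 0.589% and 0.335% in LC-/- DETC libraries. Set against the mean of the KC libraries of the same genotype, the 15 keratins with a KC mean of at least 100 normalized counts had a median level of 17.9% in W1, 16.6% in W2, 21.2% in W3 and 20.5% in both L2 and L3. The 10 keratinocyte markers that are not keratins had, in that order, medians of 14.4%, 13.9%, 17.3%, 23.5% and 15.1%, so keratins stood above them in every library but L2. DETC identity was plain in the same libraries, since the 15 DETC markers summed to 245303 to 272856 normalized counts in DETCs and to 344 to 670 in KCs. According to the authors, the sort took live, single, CD45+ cells and excluded doublets strictly. Whether the keratin reads came from DETCs, from sorted KCs or from free RNA was not tested.

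Members differed in their level relative to KCs. Krt23 was near the KC level, with a mean of 241 normalized counts in KCs and 244 in DETCs. Krt5 was at 14.4% to 20.5% of the KC level and Krt15 at 14.4% to 21.8%, close to the other keratinocyte markers. Krt79 was at 5.43% to 9.61%, Krt16 at 7.87% to 16.8% and Krt17 at 11.6% to 18.7%, below the median of those markers in each DETC library. Krt1 was at 6.31% in W1, 15.4% in W2, 6.26% in W3, 15.5% in L2 and 5.22% in L3. Krt10 was at 14.8% to 43.7%, above the median of the markers in every library but L3, and Krt6a and Krt24 were above it in every library but L2. Levels above it in every library were found for Krt14 at 14.8% to 26.9%, Krt80 at 19.4% to 38.7%, Krt77 at 23.7% to 69.3%, Krt78 at 38.3% to 90.5%, Krt75 at 35.7% to 82.5% and Krt23 at 72.3% to 148%. W2 and L2 were the highest DETC libraries for Krt1, Krt10, Krt77 and Krt78, as Krt10 shows with 11672, 25151 and 13800 normalized counts in WT and 24302 and 8211 in LC-/- DETCs. W3 and L3 were the highest for Krt24, Krt6a and Krt75, with 136 and 107 normalized counts of Krt24 against 40.8 to 65.2 in the other DETC libraries. Krt1 and Krt10, partners in 1 filament, did not keep the proportion they had in KCs, since the ratio of their counts was 0.0961 to 0.130 in DETC libraries against 0.270 to 0.350 in KC libraries. Suprabasal over basal counts came to 0.611 in W1, 1.41 in W2, 0.632 in W3, 0.936 in L2 and 0.410 in L3, and genotypes overlapped.

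**Figure D3:**
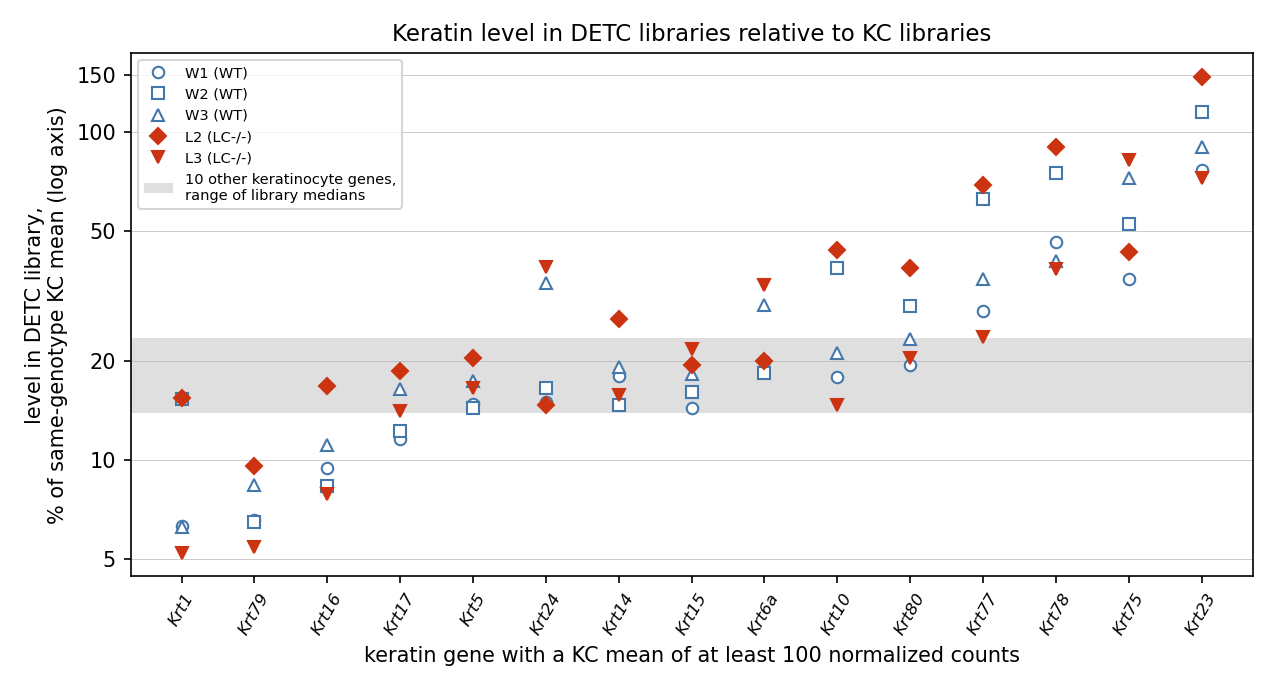
Level of 15 keratin genes in each DETC library as a percentage of the mean of the KC libraries of the same genotype (vertical axis, logarithmic), where open symbols are WT and filled symbols LC-/- libraries and the grey band spans the library medians of 10 keratinocyte markers that are not keratins, 13.9% to 23.5%. Krt79, 4 of 5 values of Krt16, 3 of 5 of Krt1 and 2 of 5 of Krt17 lie below the band, and all values of Krt77, Krt78, Krt75 and Krt23 lie above it.

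Krt83 was the 1 named keratin with more normalized counts in every DETC library than in any KC library. Krt83 (ENSMUSG00000067613.5) is a type II keratin of the hair shaft cortex and lies at chr15:101485130-101491512 on the minus strand. In DETC libraries it had 108, 94.9 and 96.3 normalized counts in WT and 61.2 and 52.0 in LC-/-. In KC libraries it had 6.15, 0 and 0.864 in WT and 1.10, 2.04 and 2.10 in LC-/-, all from 6 reads or fewer, so every DETC library lay above every KC library, and the difference between populations was not tested. The other hair shaft keratins did not go with it, since Krt32 had 14.9 to 22.3 normalized counts in DETCs and 10 of the 15 shaft members had 0 reads in every DETC library. The hair matrix and shaft markers summed to 129 to 171 in DETCs, led by Msx2, and Shh was at 0. Of the 75-base stretches of Krt83, 12.5% occur in other genes, 10.6% in Krt86, which had at most 1 read in any library.

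Whether the absence of LCs goes with other keratin levels in the DETC libraries was compared in the same way. No keratin passed the adjusted threshold by limma. The test gave 0 of 19 keratins higher, where 3.13% of all tested genes were, and 0 lower, where 0.43% were, and in either direction 3.56% of all tested genes were called. Of these calls by limma 87.9% were higher, but 28.7% with the library total (217 higher, 538 lower), and without the trend 0 genes were called. At an unadjusted p under 0.05 limma had 2 keratins higher (Krt16 and Krt17) and 1 lower (Krt83), against 13.1% and 6.19% of all tested genes. Of the keratins edgeR called 0, against 3.35% of all tested genes, and DESeq2 called 1 higher (Krt16) and 1 lower (Krt83), against 6.02% and 1.46%. Krt83 was the 1 keratin of 19 whose values did not overlap, against 37.9% of all tested genes. Its WT mean was 99.7 ± 7.22 (SD, n = 3), its LC-/- mean 56.6 ± 6.51 (SD, n = 2), a log2 fold change of -0.81 (SE 0.20) with an adjusted p of 0.0692 by limma, and 0.0398 to 0.502 over 16 alternatives. The median log2 fold change was 0.02 over the 19 keratins and 0.02 over all tested genes, and with the library total both turned negative, to -0.18. Of all tested genes 52.39% were above 0, and 9 of the 19 keratins were below 0. When 1 library was left out, 4 to 11 were below 0 and the keratin median went from -0.10 (without W1) to 0.41 (without L3). Members other than Krt16, Krt17 and Krt83 lay between -0.67 and 0.67, with Krt7 and Krt2 at the extremes and at most 6.55 normalized counts of either in any DETC library.

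Krt16 and Krt17 in DETCs rested on L2. Krt16 had 608, 536 and 715 normalized counts in WT and 1517 (L2) and 711 (L3) in LC-/- DETCs, so L2 stood alone and L3 lay inside the WT range. The log2 fold change was 0.75 (SE 0.28) with an adjusted p of 0.198 by limma. Without L3 it was 1.30 with an adjusted p of 0.0121 by limma, and without L2 it was 0.21 with an adjusted p of 0.647, the lowest and highest of its 16 alternatives, where the lone remaining library is assumed to vary like the WT ones. Krt17 had 1794, 1903 and 2556 in WT and 3150 (L2) and 2377 (L3) in LC-/- DETCs, again with L2 highest and L3 inside the WT range, a log2 fold change of 0.41 (SE 0.17, adjusted p of 0.252 by limma), which was 0.21 without L2 and 0.61 without L3. L2 also had the highest median level of the other keratinocyte markers, 23.5% of the KC level against 13.9% to 17.3% in the other DETC libraries, and the part of that level in the Krt16 value was not tested.

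The change between genotypes was also compared between the populations, with an interaction term over all 11 libraries. By limma 0 of 19 keratins were called, where 0.798% of all tested genes were, and 0 passed at an unadjusted p under 0.05, where 7.30% of all tested genes were above 0 and 4.04% below. Of the keratins edgeR and DESeq2 also called 0, where they called 0.791% and 2.16% of all tested genes. The smallest adjusted p was 0.451, for Krt15, with a difference of log2 fold changes, DETC minus KC, of 0.35 (SE 0.16), or 0.10 with quantile scaling. The difference was above 0 for 17 of the 19, with a median of 0.24 against 0.05 over all tested genes, of which 56.59% were above 0. These 19 include Krt2 and Krt7, which met the minimum only through KCs, and Krt83, which met it only through DETCs. No direction is read from these members. Krt7 (-0.77) and Krt83 (-1.0) were the 2 below 0, and Krt2 (0.88) was the highest. The difference was above 0 for 13 with the library total or without the KC library L1, and for 15 with quantile scaling. The replicate block also leaves L1 without weight, since it has no DETC partner. Without the DETC library L2 the tally turned round, with 8 above and 11 below 0 and a median of -0.22, and without the DETC library L3 the median was 0.55. For Krt16, called in KCs and not in DETCs, the difference was 0.26 (SE 0.31, adjusted p of 0.833 by limma), and without the DETC library L2 it was -0.29. For Krt83 it was -1.0 (SE 0.82, adjusted p of 0.734 by limma), but Krt83 met the minimum only through DETCs and no size is read from its few reads in KCs.

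Genes that work with keratins were read from lists in the same fits, where calls over all tested genes came to 5.37% (up) and 1.85% (down) in KCs and to 3.13% (up) and 0.43% (down) for DETCs. Whether a list holds more calls than these shares was not tested. Of 25 tested keratin partners, such as desmosomal plaque proteins and plakins, 1 was higher in LC-/- KCs, Fam83h, a scaffold that organizes keratin filaments, with 2784, 2478 and 2611 normalized counts in WT and 3486, 3739 and 3498 in LC-/- KCs (log2 fold change 0.45, SE 0.06, adjusted p of 0.0238 by limma), and 0 were lower. In DETCs 1 partner was higher, the chaperone Dnajb6, with 4315, 3940 and 3664 in WT and 5981 and 5461 in LC-/- libraries (log2 fold change 0.53), and 0 were lower. Of 39 transcription regulators with a known part in keratin genes, 5 were higher and 4 lower in LC-/- KCs. Among the called regulators, the largest differences in log2 were those of Fosl1 (0.56), an AP-1 subunit, Hes1 (-0.51), a Notch target, and Pou3f1 (-0.48). Rxra (-0.42), the retinoid receptor partner, Klf5 (0.41) and Stat3 (0.39) came next. Hoxc13 (-0.74) and Foxn1 (-0.63) had larger differences but were not called. Fosl1 had 16795, 14357 and 15829 normalized counts in WT and 20753, 23089 and 25761 in LC-/- KCs, and like Krt16 it did not overlap between genotypes. In DETCs Fosl2 (0.87), Nfe2l2 (0.83) and Stat3 (0.75) were higher and 0 regulators were lower. Of 6 tested genes of other intermediate filaments, Synm, which encodes synemin, was lower in LC-/- KCs, with 35.9, 26.9 and 32.9 against 12.1, 15.3 and 13.7 normalized counts (log2 fold change -1.16, SE 0.16, adjusted p of 0.0254 by limma), and 0 were called in DETCs. The calls named here depended on single libraries, and the other called regulators were not checked in this way. By limma, the calls of Fosl1, Hes1 and Klf5 in KCs ended without any 1 of W1, W2, W3, L1, L2 and L3 (adjusted p 0.0575 to 0.137). Those of Fam83h, Pou3f1, Rxra, Stat3 and Synm in KCs ended without any of these libraries but L2 (0.0580 to 0.118). In DETCs the calls of Fosl2 and Dnajb6 ended without W2, W3, L2 or L3 (0.0506 to 0.247), that of Stat3 without W2, W3 or L2 (0.0606 to 0.0961) and that of Nfe2l2 without W3 or L2 (0.0534 and 0.0635). Other settings ended calls too. In KCs quantile scaling ended those of Fam83h, Fosl1, Hes1, Klf5 and Stat3, the fit without the trend those of Fosl1, Hes1 and Rxra, and the fit of all 11 libraries those of Fam83h, Fosl1, Hes1, Pou3f1, Klf5 and Synm (adjusted p 0.0513 to 0.17 by limma). Quantile scaling also made the log2 fold changes smaller for Klf5 (0.20) and Stat3 (0.17) in KCs and for Fosl2 (0.44) and Dnajb6 (0.30) in DETCs. In DETCs limma without the trend ended the calls of Fosl2, Nfe2l2 and Stat3 (0.179) and Dnajb6 (0.189), quantile scaling ended those of Fosl2 (0.0946) and Dnajb6 (0.212), a pseudocount of 8 that of Fosl2 (0.0521) and the library total that of Dnajb6 (0.115), which edgeR did not call either (0.0506).

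Marker lists gave the cell types around these values, against the same shares of all tested genes. In KCs the called markers were Dsg3 (0.33), the basal desmoglein, among 15 keratinocyte markers, Plet1 (0.83) among 11 markers of follicle stem cells and root sheath, and Cd207, H2-Aa and Cd74 among 8 tested of LCs, which were lower. Cd3g and Ctss are left out in KCs, since they met the minimum only through DETCs and were above 1 CPM in 0 KC libraries. In DETCs the called markers were Plet1 (1.10), Trdv4 (-1.04) and, lower among the LC markers, H2-Aa, H2-Eb1, H2-Ab1 and Cd74. Cd207 and H2-Aa were above 1 CPM in WT libraries only. They met the minimum through the genotype where they are high, so no conclusion is drawn from their calls. Plet1 was called in both populations, in KCs not without W1, W2, W3, L1 or L3 (adjusted p 0.0746 to 0.122 by limma) and in DETCs not without W2, W3 or L2 (0.0589 to 0.0780). It had 20566, 19344 and 22553 normalized counts in WT and 35406, 32585 and 43579 in LC-/- KCs, and in DETCs it was at 16.1%, 13.8% and 18.0% of the KC level in WT and at 22.2% and 16.3% in LC-/- libraries, near the medians of the keratinocyte markers. Whether the DETC call of Plet1 comes from DETCs was not tested. Follicle keratins that met the minimum in KCs had log2 fold changes of either sign there, and only that of Krt16 was called. These were 0.495 for Krt16, 0.121 for Krt17 and 0.094 for Krt75. Below 0 were Krt15 (-0.155), Krt32 (-0.142), Krt79 (-0.097) and Krt6a (-0.072). The 11 markers of follicle stem cells and root sheath, Plet1 included, had a median of -0.058 in KCs. Markers of melanocytes, fibroblasts, sebaceous gland, hair matrix, proliferation, endothelium and mast cells had 0 called members in either population, and Merkel cell markers had 0 tested. By limma, the calls of Dsg3, H2-Aa and Cd74 in KCs ended without any 1 of the 6 libraries (adjusted p 0.0579 to 0.148) and that of Cd207 without any but W1 (0.0507 to 0.0864). In DETCs the call of Trdv4 ended without any library but W2 (0.0612 to 0.0918), those of H2-Ab1 and Cd74 without any but L3 (0.0521 to 0.136), that of H2-Aa without W2 or W3 (0.0595 and 0.0656) and that of H2-Eb1 without W3 (0.0560). Without the trend limma called none of the DETC markers named here (0.179 to 0.189), and in KCs it did not call Dsg3 (0.0627) and Cd74 (0.0555). The fit of all 11 libraries ended the calls of Trdv4 in DETCs (0.464) and Dsg3 in KCs (0.270). Quantile scaling ended those of H2-Ab1 in DETCs (0.0601) and of Dsg3 (0.236, log2 fold change 0.12) and Cd74 (0.0632) in KCs. The call of Dsg3 also ended with the library total (0.108) and with size factors from KCs alone (0.0522), and that of Cd207 in KCs with a pseudocount of 8 (0.0550). DESeq2 gave no adjusted p for H2-Aa in either population, Cd207 and Synm in KCs and H2-Ab1 in DETCs.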

How the data were processed

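RNA was sequenced from sorted KCs and DETCs. According to the authors, reads were trimmed, aligned to GRCm38 and counted per gene, and the deposited signal is these counts divided by a median-of-ratios size factor per library, not in logs. Dividing by the smallest step of a library gave back whole reads for 100.0% of values to within 0.01 reads. Genes were matched to GENCODE mouse release 21 by ID (52403 of 52550). The main test was limma 3.58.1 (eBayes with trend) in R 4.3.3 on log2 of the value plus 1, over genes that met the authors' filter, with Benjamini-Hochberg adjustment and a threshold of 0.05. edgeR 4.0.16 and DESeq2 1.42.0 on the recovered reads were alternatives, as were pseudocounts of 0.5 and 8, no filter, a mean of at least 10, library-total, quantile and within-population scaling, no trend, 1 fit over all 11 libraries, a replicate block and leaving out each library. Members with a mean of at least 10 in KCs or DETCs are named, and from each other list the called genes, at most 6 by size of change. Members and lists were chosen with earlier results of these data known. The fits were tested on simulated data. Python 3.11.15 drew the figures. Promoters came from RefSeq.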

Additional observations from a re-analysis of the deposited data

Results flagged for a closer look

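The interaction test of limma, which compares the change between genotypes in KCs and in DETCs, called 4 genes of the lists and no keratin, and for Cd3g and Ctss the call is not read as a change that differed. None of the 4 was called with the replicate block, which also leaves the KC library L1 without weight (adjusted p by limma of 0.156 for Fosl2, 0.111 for Nfe2l2, 0.0538 for Cd3g and 0.133 for Ctss). Of 21 alternatives, 15 kept the call of Fosl2, 17 that of Nfe2l2, 9 that of Cd3g and 7 that of Ctss. The value given for each is the log2 fold change in DETCs minus that in KCs. For Fosl2, an AP-1 subunit, it was 0.92 (adjusted p of 0.0174 by limma), with 9509, 10273 and 9899 normalized counts in WT KCs, 9115, 10161 and 9378 in LC-/- KCs, 80394, 84691 and 79552 in WT DETCs and 142781 and 154870 in LC-/- DETCs. For Nfe2l2, a regulator of the oxidative stress response, it was 0.69 (adjusted p of 0.0146 by limma), with DETC counts of 3276, 3648 and 3517 in WT and 6437 and 5954 in LC-/- libraries. Fosl2 was not called without the KC libraries L1, W2 or W3 or the DETC libraries L2 or L3 (adjusted p 0.0511 to 0.0717), nor Nfe2l2 without L1 of KCs or L2 of DETCs (0.0508 and 0.0755) or without the trend (0.0773). Cd3g and Ctss met the minimum only through DETCs and were above 1 CPM in 0 KC libraries, so the sizes that follow depend on the pseudocount and are not read as measured differences. For Cd3g, a T cell receptor subunit, it was -2.01 (adjusted p of 0.0308 by limma), where the KC values were 1.03, 0.927 and 0.864 in WT and 9.92, 6.11 and 3.15 in LC-/- libraries, few reads each, and the call ended without 9 of the 11 libraries, all but the KC libraries L1 and L3 (0.0581 to 0.126), with a pseudocount of 8 (-0.85, adjusted p of 0.0798 by limma) and without the trend (0.112). For Ctss, a protease of antigen presenting cells, it was 2.01 (adjusted p of 0.0299 by limma), where KCs had 4.10, 5.57 and 4.32 in WT and 0 in each LC-/- library, and the call ended without 9 of the 11 libraries, all but L2 of KCs and L2 of DETCs (0.0507 to 0.0952), with a pseudocount of 8 (0.19, adjusted p of 0.856 by limma), no filter (0.0784) and quantile scaling (0.101), and by edgeR (0.177).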

How the results depend on the processing

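Keratins called in KCs numbered 1 of 19, and 2 without a filter (of 44, where 6.59% of all genes were called), with a mean of at least 10 (13.2%), by edgeR (12.4%) and by DESeq2 (12.2%), but 0 with the library total, with quantile scaling, in the fit of all 11 libraries and without any 1 library (0 to 0). In DETCs the count of 0 became 1 with the library total (5.24%), 2 by DESeq2 (7.48%) and 0 to 1 when 1 library was left out, with the 1 made without L3 (4.09%). The count for the difference between populations stayed at 0 in every alternative, the replicate block included, though whether a number marks 1 animal in both populations is not stated. After group means were removed, DETC libraries correlated best over genes with the KC library of their own number for W2, W3, L2 and L3 (0.0883 to 0.166) and not for W1 (-0.0715). The LC-/- DETC group holds only L2 and L3, whose deviations from their mean are exact opposites. Their matches are therefore not independent. Of 794 alternative values of single genes, 577 kept direction and side of the threshold, 204 lost the call, 8 gained it and 5 changed sign. Only genes called in the main fit could lose a call, so the 204 are a larger share of the values at risk than of the 794. The 5 were Krt14 in KCs (-0.10 with the library total, -0.068 with quantile scaling), Krt17 in KCs (-0.012 and -0.035) and the Krt16 difference between populations, which ranged from -0.29 (without the DETC library L2) to 0.81 when 1 library was left out. The cause was not tested. The DETC level of keratins was 19.3% of KCs on average, 18.9% to 20% with 1 library left out, a check chosen after seeing the data, and 16.8% for the other keratinocyte markers. The suprabasal to basal ratio, LC-/- minus WT, was -0.0582 in KCs and -0.125 to -0.00582 with 1 library left out, and -0.212 in DETCs, from -0.475 to 0.0514 and above 0 without W2 or L3. With Krt1 plus Krt10 over Krt5 plus Krt14 it was -0.06 in KCs and -0.159 in DETCs. That moved it by less than 1 SD between libraries (0.121 in KCs, 0.455 in DETCs). Leaving out 1 library cannot move it by a full SD, whatever the values, so no stability is read from those alternatives. Over all tested genes, leaving out 1 library gave 5 to 721 calls in KCs and 35 to 590 in DETCs, so the counts of calls are far from fixed. Depth limits members with few reads, such as Krt83 in KCs, whose values rest on 0 to 6 reads.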
